A study of Mus musculus with 20 samples.

Results

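The 8 genes described here encode the epidermal growth factor (EGF) receptor and 7 ligands of its family. They were chosen by symbol (Egf, Egfr, Hbegf, Areg, Ereg, Tgfa, Btc and Nrg1) from 47069 Ensembl genes with an estimated read count. All 8 passed the filter on low counts and were among the 17622 genes tested. RNA-seq was performed on total RNA from the kidneys of 20 male F1 hybrid mice (129SJ x C57Bl/6J) sacrificed at 15 weeks of age. The WT group (n = 5) comprised untreated wild-type mice, whereas the other groups carried the homozygous Col4a3-/- mutation, a mouse model of Alport syndrome in which the α3 chain of type IV collagen of the basement membrane is lost in every tissue from birth. From 5 weeks on, these mice received vehicle (Veh, PBS, n = 6), the miR-21 inhibitor Lademirsen at 50 mg/kg injected subcutaneously once weekly (Anti-miR-21, n = 6), or the angiotensin-converting enzyme inhibitor ramipril in their water (ACEi, 11 mg/L, n = 3). The ACEi mice, like the Veh mice, were also injected subcutaneously with PBS once weekly. The deposited library table states the ramipril dose differently, per kg of body weight. WT mice were not injected, so that genotype and injection cannot be told apart between Veh and WT. The WT mice are described as littermates of the model, the litter of each mouse was not known, and each library is 1 mouse.

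EGF-family ligands are made as membrane-anchored precursors. Metalloproteases of the ADAM family release them, and the released ligands bind EGFR or a related ERBB receptor, which signals through RAS and ERK, PI3K and AKT, and STAT3. In the kidney, EGF is made mainly by the thick ascending limb and the distal convoluted tubule and released into the urine, and it takes part in magnesium reabsorption and in tubular repair. HB-EGF, TGF-α, amphiregulin (Areg) and epiregulin (Ereg) are known as ligands induced by tissue injury, betacellulin (Btc) binds EGFR and ERBB4, and neuregulin 1 (Nrg1) binds ERBB3 and ERBB4 rather than EGFR.

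The oligonucleotide given to 1 of the groups is directed against miR-21, and the mature mouse sequence is shown to define the letters searched for in the members. In the RefSeq table (GRCm38.p6), miR-21a-5p lies at chr11:86584120-86584141 on the minus strand, and its seed (bases 2 to 8) is in capitals.
miR-21a-5p: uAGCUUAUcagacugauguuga
The 3′ UTRs of the members were searched for the 7 letters ATAAGCT, which pair with the whole seed, and for TAAGCTA. In the latter, the letters before the final A pair with all but the last seed base. Of the 8 members, 2 held such a match in their 3′ UTR, against 11.1% of 20996 protein-coding genes with a 3′ UTR, whose median length was 954 bases. Egf held 1 match in 755 bases, and Egfr held 2 in 6303 bases. They are shown with the match in capitals, 5′ to 3′ on the strand of the gene, at chr3:129678048-129678076 for Egf and at chr11:16915546-16915574 and chr11:16915976-16916004 for Egfr.
Egf: gacattcatatATAAGCTgtgtcttcttc
Egfr, first match: actttcttttgATAAGCTtgtgcttgtat
Egfr, second match: tattacagagcTAAGCTAgaccgttacag
No member held the 8-letter form ATAAGCTA. A match describes letters and was not tested as a site.

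The promoters of Egf and Areg are shown because these are the ligand with the highest and the ligand with the lowest level in WT kidneys. Each runs from 250 bases before to 50 bases after an annotated start in RefSeq (GRCm38.p6), at chr3:129755273-129755572 (minus strand) for Egf and at chr5:91139349-91139648 (plus strand) for Areg. A second Egf start window in the same table, at chr3:129725037-129725336, is not shown. Motifs found on either strand are in capitals.
Egf: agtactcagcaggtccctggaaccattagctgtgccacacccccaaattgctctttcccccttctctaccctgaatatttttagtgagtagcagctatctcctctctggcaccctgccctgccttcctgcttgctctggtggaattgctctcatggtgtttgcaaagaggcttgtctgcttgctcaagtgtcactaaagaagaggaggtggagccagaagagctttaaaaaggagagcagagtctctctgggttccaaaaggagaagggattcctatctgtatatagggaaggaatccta
Areg: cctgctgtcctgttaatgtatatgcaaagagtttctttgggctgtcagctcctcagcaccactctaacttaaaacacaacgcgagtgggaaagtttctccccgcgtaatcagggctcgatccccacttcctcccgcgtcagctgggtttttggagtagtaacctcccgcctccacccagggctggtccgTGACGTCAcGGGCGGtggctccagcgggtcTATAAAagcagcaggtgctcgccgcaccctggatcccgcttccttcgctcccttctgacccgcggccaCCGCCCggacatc
The Areg window held the cyclic AMP response element TGACGTCA at base -61 from the start, the TATA box TATAAA at base -31, and the GC box GGGCGG (reverse complement CCGCCC) at bases -52 and 37. Of 32851 promoter windows of the same length, 1.79% held the first, 13.6% the second and 35.7% the third. The Egf window shown held none of the 6 motifs searched, which were these 3, the AP-1 motif TGANTCA (7.81% of windows), the E-box CACGTG (7.15%) and the HNF1 motif (0.00913%). This says only that those letters are not in this window.

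The libraries were of similar depth. The estimated counts summed to between 28474301 and 29479629 per mouse. Levels are given as CPM, counts in proportion to the total of each library, after scaling between libraries with TMM factors, as the mean ± SD, and differences as log2 fold changes from edgeR's quasi-likelihood test, with Benjamini-Hochberg adjustment over all genes tested and a threshold of 0.05. Col4a3 transcript averaged 216.6 CPM in WT (193.8 to 237.5) and 37.84 CPM in Veh (27.9 to 46.3), and its highest value in any Col4a3-/- mouse was 74.86 CPM. Each library thus matched its labelled genotype. Markers of the kidney were abundant in every library (among them Umod, Slc34a1 and Aqp2), whereas the summed CPM of 5 adipocyte markers exceeded 100 CPM in 3 Veh mice (A1, A4 and A9, 350.9 to 410.1) and in 1 Anti-miR-21 mouse (A12, 224.2). The extraction protocol in the labels names adipose tissue, although the tissue label is kidney. Calls that were lost when these 4 mice were left out are named beside the results.

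Egf was by far the most abundant ligand transcript of the WT kidney, and its log2 fold change was the largest in size among the members, Areg aside, in Veh against WT and in each treated group against Veh. It averaged 1210.7 ± 189.9 CPM in WT, 56.28 ± 45.43 CPM in Veh, 506.3 ± 142.7 CPM in Anti-miR-21 and 309.6 ± 61.62 CPM in ACEi. The gene lies at chr3:129677565-129755316 (GRCm38, minus strand). In the 5 WT mice, Egf stood at 1002.6, 1014.1, 1289.0, 1335.5 and 1412.3 CPM. In the 6 Veh mice the lowest value was 16.57, the median 36.45 and the highest 124.5 CPM. The groups did not overlap, as was so for 54.9% of all genes tested, and the SD of the Veh mice was a larger part of their mean than in any other group. Egf was 21.5-fold lower in Veh than in WT (log2 fold change -4.43, SE 0.43, edgeR adjusted p = 1.3e-08).

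**Figure D1:**
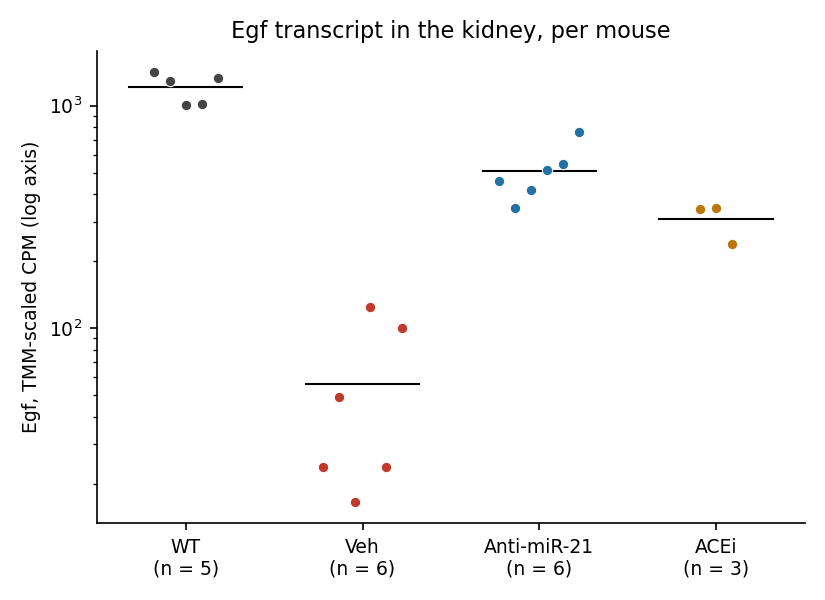
Egf transcript per mouse in the 4 groups, as TMM-scaled CPM on a log axis, with points for mice and a line at the group mean. The Veh mice reach at most 124.5 CPM and the WT mice start at 1002.6 CPM, and the 6 Anti-miR-21 and 3 ACEi mice lie between them without overlapping Veh or WT.

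Both treatments left Egf higher than in Veh and lower than in WT. In Anti-miR-21, the lowest of 6 mice had 346.6, the median was 484.2 and the highest 760.2 CPM. In ACEi, the 3 mice had 238.4, 343.9 and 346.4 CPM. No treated mouse overlapped Veh or WT. Groups that did not overlap made up 36.4% of all genes for Anti-miR-21 and Veh, 38.6% for ACEi and Veh, 23.8% for Anti-miR-21 and WT, and 46.1% for ACEi and WT. Egf rose 9.0-fold in Anti-miR-21 over Veh (log2 fold change 3.17, SE 0.40, edgeR adjusted p = 1.62e-06) and 5.5-fold in ACEi over Veh (2.46, SE 0.44, edgeR adjusted p = 0.000223). Against WT it remained lower in Anti-miR-21 (-1.26, SE 0.39, edgeR adjusted p = 0.0133) and in ACEi (-1.97, SE 0.51, edgeR adjusted p = 0.00357). These comparisons share the Veh or WT mice and are therefore given side by side. All Anti-miR-21 mice had more Egf than any ACEi mouse, with 346.6 against 346.4 CPM at the closest pair, but the difference did not pass the test (0.71 on the log2 scale, 95% interval -0.27 to 1.69, edgeR adjusted p = 0.505). Groups that did not overlap between the treatments were found for 8.99% of all genes tested. On the log2 CPM scale, with the Veh mean set to 0% and the WT mean to 100%, the Anti-miR-21 mice stood at 73.3% ± 7.99 (62.9 to 86.4) and the ACEi mice at 59.1% ± 6.39 (51.7 to 62.9).

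The libraries came from a pair of flow cells, read from the library names. The 2 Veh libraries of flow cell H5Y3 (A16 and A20) had the highest Egf of their group, 124.5 and 100.0 CPM, and the other 4 Veh libraries, of flow cell H5V5, had 16.57 to 49.19 CPM. Within flow cell H5V5 alone the log2 fold change of Egf between Veh and WT was -5.44 (SE 0.36), and within H5Y3 alone it was -3.39 (SE 0.20). Between Anti-miR-21 and Veh it was 4.21 (SE 0.33) within H5V5, and H5Y3 held only 1 Anti-miR-21 library. Between ACEi and Veh it was 1.65 (SE 0.18) within H5Y3, and H5V5 held only 1 ACEi library. All of these passed the edgeR test. The 4 mice high in adipocyte markers were all on H5V5, and 3 of them were 3 of its 4 Veh mice, so that within Veh the flow cell and these markers can hardly be told apart, for Egf as for Hbegf and Tgfa below. The remaining Veh mouse on H5V5, A19, had 23.66 CPM of Egf, and without the 4 mice the log2 fold change of Egf between Veh and WT was -3.87 (SE 0.43, edgeR adjusted p = 8.18e-07).

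Most markers of the tubule segments that make EGF also fell in Veh, by smaller folds than Egf. In bulk RNA, fewer cells of a type and less RNA per cell cannot be told apart. Of all genes tested, 34.0% were called lower and 39.0% higher in Veh against WT. Of 5 thick ascending limb markers, 4 fell and Cldn16, a paracellular magnesium channel protein, rose. Their summed level, most of it Umod (uromodulin), was 5610.8 to 6848.5 CPM in WT, 2112.0 to 4819.6 in Veh, 4387.3 to 5966.7 in Anti-miR-21 and 3506.8 to 5163.0 in ACEi. All 5 distal convoluted tubule markers fell, and their sum, led by the sodium chloride cotransporter Slc12a3, was 1106.3 to 1534.2 CPM in WT, 388.5 to 547.8 in Veh, 802.3 to 980.6 in Anti-miR-21 and 651.2 to 733.3 in ACEi. None of the 10 markers was at 0 in a group. The calcium-binding protein gene Pvalb fell most among them (log2 fold change -4.03, SE 0.53, from 42.96 ± 6.50 to 2.66 ± 3.02 CPM, edgeR adjusted p = 7.63e-07). Slc12a3 followed (-1.85, SE 0.16, edgeR adjusted p = 1.33e-09), and Umod changed by -0.90 (SE 0.18, edgeR adjusted p = 0.000185).

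Egf was then set against these markers within each mouse, a quantity chosen after the values were known. The log2 ratio of Egf to the summed thick ascending limb markers averaged -2.36 ± 0.26 in WT, -6.18 ± 0.75 in Veh, -3.41 ± 0.34 in Anti-miR-21 and -3.84 ± 0.10 in ACEi. Against the distal convoluted tubule markers it averaged -0.13 ± 0.18, -3.44 ± 1.05, -0.84 ± 0.33 and -1.18 ± 0.24 in the same order. Relative to either segment's markers, Egf was lower in all 6 Veh mice than in any WT mouse (differences of -3.83 and -3.30), and higher in all Anti-miR-21 and all ACEi mice than in any Veh mouse (differences of 2.78 and 2.60 for Anti-miR-21, and 2.35 and 2.26 for ACEi). Both treated groups stayed below every WT mouse on both ratios, with differences of -0.71 to -1.48. Anti-miR-21 and ACEi overlapped on both ratios. These ratios are a description without a test, since Egf alone already separated these groups.

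**Figure D2:**
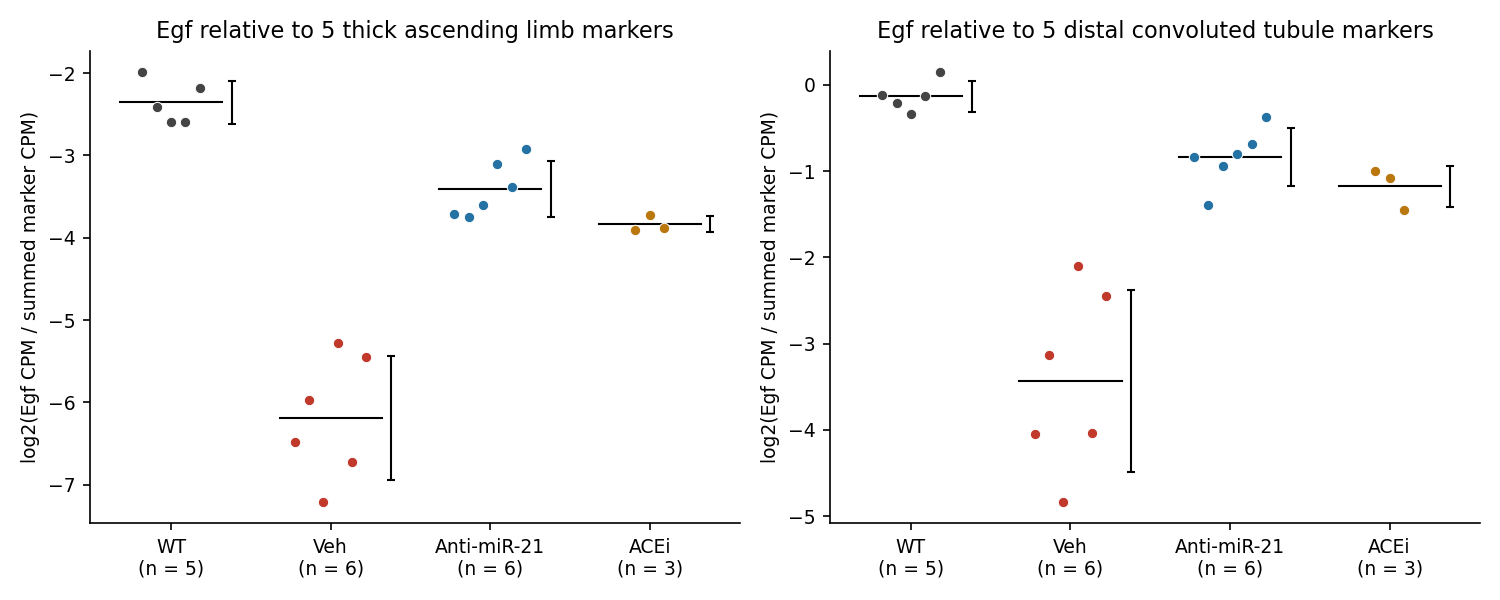
Log2 ratio of Egf CPM to the summed CPM of 5 markers of the thick ascending limb (left) or of the distal convoluted tubule (right), per mouse, with a line at the group mean and a bar of 1 SD. The 6 Veh mice lie below every mouse of the other 3 groups in both panels.

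Of the 4 other ligands with more than a few counts in every library, HB-EGF, TGF-α and neuregulin 1 rose in Veh under TMM scaling and library totals alike, and Btc was not called. Among the 8 members, 6 were called between Veh and WT (5 higher, 1 lower), beside 73.0% of all genes tested, so that being called in this comparison does not set the members apart. The background was 39.0% for genes called higher and 34.0% for genes called lower, or 6869 and 5998 genes, which became 11623 and 2684 with library totals alone. The 6 called members were Egf, Hbegf, Areg, Ereg, Tgfa and Nrg1. Areg and Ereg passed the count filter only through mice in which they are high, so their calls against WT and against Veh are a description. Between Anti-miR-21 and Veh, the same number was called (1 higher, 5 lower), beside 59.2% of all genes (28.8% higher, 30.5% lower). Areg and Ereg were among the 5 lower. With at least 10 counts in every mouse they were not tested, and 4 members were called. Between ACEi and Veh, 4 members were called (1 higher, 3 lower), beside 40.1% of all genes (21.0% higher, 19.1% lower). Of the genes called in these comparisons, 48.6% were higher in Anti-miR-21 and 52.4% in ACEi, and with library totals alone 19.96% and 20.5%. No member was called between Anti-miR-21 and ACEi by edgeR or DESeq2, which called 0.584% and 2.48% of all genes, and 2562 genes had an unadjusted p under 0.05 in edgeR. Against WT, 4 members were called in Anti-miR-21 (Egf, Areg, Ereg and Nrg1), beside 43.7% of all genes, and these and Hbegf were called in ACEi, beside 47.7%. Areg and Ereg entered these comparisons through their counts in Veh. With only the groups compared, Areg and Ereg were not tested against WT in either treated group.

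Nrg1 had the largest rise of these 3 ligands. The 5 WT mice had 1.65, 2.37, 3.57, 4.06 and 4.45 CPM, and the Veh mice had a lowest value of 6.80, a median of 8.68 and a highest of 11.4 CPM. The Veh mice lay above every WT mouse (log2 fold change 1.42, SE 0.21, edgeR adjusted p = 4.6e-06). In Anti-miR-21 the mice ranged from 3.82 to 6.28 CPM and in ACEi they had 4.53, 5.73 and 5.86 CPM, each below every Veh mouse. Nrg1 fell in Anti-miR-21 against Veh (-0.79, SE 0.19, edgeR adjusted p = 0.00161) and in ACEi against Veh (-0.68, SE 0.24, edgeR adjusted p = 0.0297). The latter call was lost without any 1 of Veh mice A1 and A19 or of the 3 ACEi mice (highest edgeR adjusted p = 0.135), without the 4 mice high in adipocyte markers (adjusted p = 0.0619), and within flow cell H5Y3 alone (-0.61, adjusted p = 0.193). Against WT, Nrg1 was higher in Anti-miR-21 (0.64, SE 0.21, edgeR adjusted p = 0.0204) and in ACEi (0.74, SE 0.25, edgeR adjusted p = 0.019). The first of these calls was lost without A14 or A17 of WT (highest edgeR adjusted p = 0.0568) and within flow cell H5V5 alone (0.49, adjusted p = 0.192). The second was lost without A13 or A23 of ACEi (highest edgeR adjusted p = 0.0698), with only the groups compared (adjusted p = 0.0517) and within H5Y3 alone (0.81, adjusted p = 0.0744). The gene (chr8:31814551-32884029, minus strand) overlaps the long non-coding gene Gm26578 on the other strand, which averaged 58 counts in WT and 128.8 in Veh. Whether the counting used strand is not stated, so reads of the pair may not have been told apart.

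Tgfa, whose product is secreted by many epithelia and binds only EGFR, rose less. It stood at 4.23, 4.55, 4.82, 5.48 and 6.25 CPM in WT and at 6.72 to 9.59 CPM in Veh (median 7.59), so that the groups were close but did not overlap (log2 fold change 0.62, SE 0.14, edgeR adjusted p = 0.00055). Groups did not overlap for 54.9% of all genes tested between Veh and WT, and for 38.6% between ACEi and Veh. Tgfa fell in Anti-miR-21, which ranged from 4.65 to 7.27 CPM (-0.45, SE 0.13, edgeR adjusted p = 0.00612). In ACEi it was at 4.58, 6.20 and 6.66 CPM, below every Veh mouse (-0.42, SE 0.16, edgeR adjusted p = 0.0476). That call was lost without any single Veh mouse or without A13 or A23 of ACEi (highest edgeR adjusted p = 0.286), with flow cell as a term (-0.44, adjusted p = 0.0531), with no filter on counts (-0.40, adjusted p = 0.0948), and within flow cell H5Y3 alone (-0.27, adjusted p = 0.483). Without the 4 mice high in adipocyte markers, Tgfa no longer passed the test in Anti-miR-21 (-0.24, edgeR adjusted p = 0.256) or in ACEi (-0.23, edgeR adjusted p = 0.387). Within flow cell H5Y3 alone the difference between Veh and WT was 0.23 (SE 0.23, edgeR adjusted p = 0.436), and within H5V5 it was 0.86 (SE 0.17, edgeR adjusted p = 0.000454).

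Hbegf had a mean level close to WT in Anti-miR-21 and close to Veh in ACEi, although the difference between the treated groups did not pass the test. WT mice had 12.3, 17.02, 17.9, 18.4 and 27.0 CPM, and Veh mice 22.9 to 33.8 CPM (median 27.5). The groups overlapped because of 1 WT mouse, and Hbegf was higher in Veh (log2 fold change 0.56, SE 0.16, edgeR adjusted p = 0.00313). Anti-miR-21 mice had 15.7 to 24.4 CPM (median 18.6), lower than Veh (-0.47, SE 0.15, edgeR adjusted p = 0.0103), a call that missed the threshold without the 4 mice high in adipocyte markers (-0.49, adjusted p = 0.0507). ACEi mice had 24.4, 27.8 and 29.9 CPM, a mean difference from Veh of 0.00 (95% interval -0.37 to 0.38, edgeR adjusted p = 0.997). The treated groups overlapped, and Anti-miR-21 against ACEi gave -0.47 (95% interval -0.84 to -0.10), with an adjusted p of 0.236 over all genes in edgeR. Against WT, Hbegf was higher in ACEi (0.56, SE 0.19, edgeR adjusted p = 0.0168), but not without ACEi mouse A11 (0.50, adjusted p = 0.0709) or within flow cell H5Y3 alone (0.39, adjusted p = 0.161). Within flow cell H5Y3 alone, Hbegf differed by 0.06 between Veh and WT (SE 0.19, edgeR adjusted p = 0.802), against 0.89 (SE 0.16, edgeR adjusted p = 0.00022) within H5V5.

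**Figure D3:**
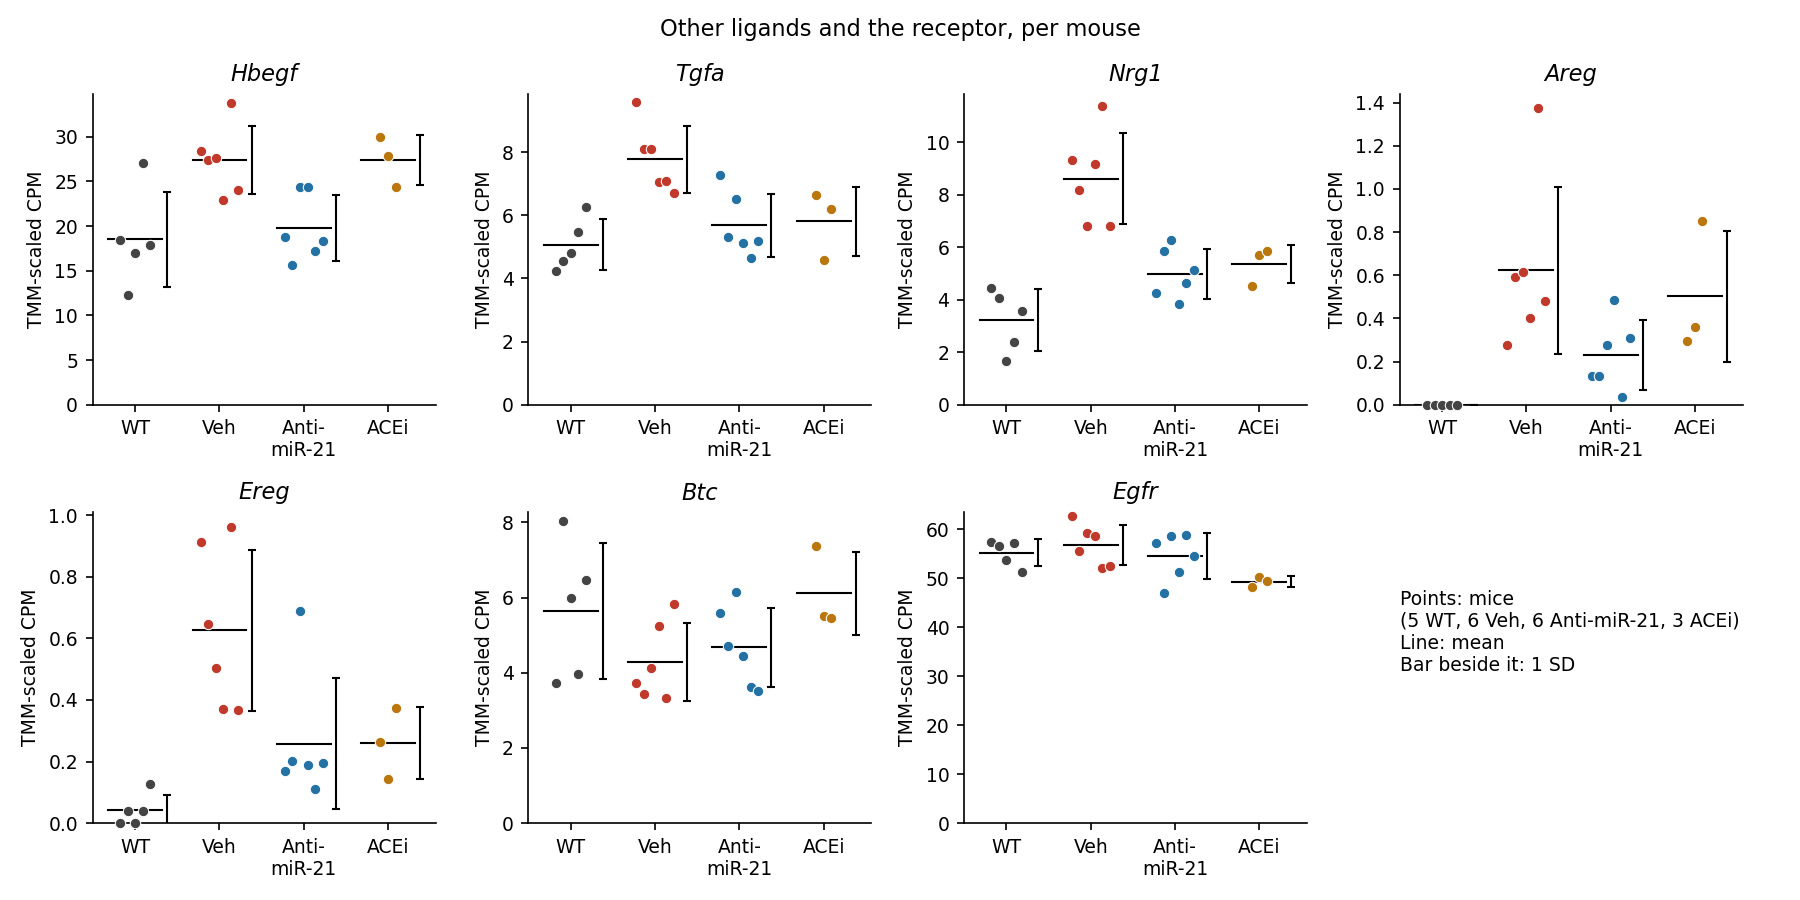
TMM-scaled CPM per mouse of Hbegf, Tgfa, Nrg1, Areg, Ereg, Btc and Egfr in the 4 groups, each panel with its own linear axis from 0, a line at the group mean and a bar of 1 SD. Nrg1 and Tgfa of the 6 Veh mice lie above all 5 WT mice, Areg is 0 in all WT mice, and the Egfr values of all mice lie between 46.97 and 62.69 CPM.

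Areg and Ereg, neighbours on chromosome 5 (chr5:91139599-91148432 and chr5:91074622-91093646, both on the plus strand), were near the limit of detection. Not a single Areg read was counted in the 5 WT libraries. The 6 Veh mice had 10, 13, 17, 21, 22 and 50 counts, the 6 Anti-miR-21 mice 1, 4, 4, 8, 8 and 13, and the 3 ACEi mice 9, 10 and 25. All Col4a3-/- mice thus had at least 1 read and no WT mouse had any. With a floor of 3 counts per library for a count of 0, Areg was at least 4.93-fold higher in Veh than in WT, at least 1.82-fold higher in Anti-miR-21 and at least 3.97-fold higher in ACEi (at least 2.59-fold without A23, which had the 25 counts). This floor covers counting error only. The edgeR adjusted p-values against WT were 1.19e-05, 0.00118 and 0.000174 in the same order, and the call in Anti-miR-21 was lost on log2(FPKM + 1) (limma adjusted p = 0.172). Areg passed the count filter only through mice in which it is high, so these p-values and those against Veh are given as a description. Areg was lower in Anti-miR-21 than in Veh (0.230 ± 0.161 against 0.623 ± 0.389 CPM, log2 fold change -1.43, SE 0.50, edgeR adjusted p = 0.0221), but not without the highest Veh mouse, A19 (adjusted p = 0.0802). In ACEi it averaged 0.502 ± 0.305 CPM (-0.31 against Veh, 95% interval -1.54 to 0.92, edgeR adjusted p = 0.698).

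Ereg was counted 5 times in the 5 WT libraries together, at most 3 times in 1 library, and 134 times in the Veh libraries, 12 to 35 times in each. Relative to depth, its counts in Veh were 15 times those in WT (exact 95% interval 6.29 to 47.1, counting error only). In Anti-miR-21 the summed count was 44, or 6.22 times WT (2.47 to 20.1), and in ACEi it was 23, or 6.23 times WT (2.32 to 21). The edgeR log2 fold change between Veh and WT was 3.77, and 4.65 without WT mouse A18, which had 3 of the 5 counts. Against WT, Ereg was at 2.51 in Anti-miR-21 and 2.52 in ACEi, and at 3.39 in each without A18, while Anti-miR-21 was at 1.94 without A10. The edgeR adjusted p for Veh against WT was 2.42e-05, and 0.0547 within flow cell H5Y3 alone. Ereg was lower in Anti-miR-21 than in Veh (0.259 ± 0.214 against 0.627 ± 0.262 CPM, log2 fold change -1.26, SE 0.45, edgeR adjusted p = 0.0215). That call was lost without A1 or A19 of Veh, without A15 of Anti-miR-21 (highest adjusted p of these 0.0581), and without the 4 mice high in adipocyte markers (adjusted p = 0.174). In ACEi a value as low, 0.260 ± 0.116 CPM, did not pass the test against Veh (-1.25, SE 0.57, edgeR adjusted p = 0.088), although it did with library totals alone (adjusted p = 0.0377), on FPKM values (highest limma adjusted p = 0.0152) and with only the groups compared (adjusted p = 0.0492). The call of Ereg in Anti-miR-21 against WT (edgeR adjusted p = 0.00626) was lost on log2(FPKM + 1) (limma adjusted p = 0.199). The call of Ereg in ACEi against WT was lost without A23 (adjusted p = 0.0578), within H5Y3 alone (adjusted p = 0.272) and on FPKM values (highest limma adjusted p = 0.256). Like Areg, Ereg passed the count filter through mice in which it is high, so its p-values against WT and against Veh are given as a description.

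Btc (chr5:91357261-91402994, minus strand) was measured in every mouse and passed no test with all mice under TMM scaling. It stood at 3.74, 3.97, 6.00, 6.46 and 8.04 CPM in WT and at 3.33 to 5.84 CPM in Veh (median 3.92), at 3.53 to 6.15 CPM in Anti-miR-21 (median 4.59) and at 5.45, 5.51 and 7.38 CPM in ACEi. All 4 groups overlapped. The difference between Veh and WT was -0.40 (95% interval -0.83 to 0.03, edgeR adjusted p = 0.0893), and its sign turned when library totals alone or FPKM values were used. Btc was called lower in Veh within flow cell H5V5 alone (-0.70, edgeR adjusted p = 0.0173) and without A3 or A17 of WT or A20 of Veh (-0.51, -0.50 and -0.51, highest edgeR adjusted p = 0.0392), and within H5Y3 it was at 0.09. Without A20 it was called higher in ACEi than in Veh (0.65, edgeR adjusted p = 0.0371), against 0.52 with all mice (edgeR adjusted p = 0.0894).

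Egfr itself had the smallest log2 difference of the 8 members between Veh and WT under TMM scaling. It averaged 55.19 ± 2.72 CPM in WT, 56.73 ± 4.16 CPM in Veh, 54.55 ± 4.69 CPM in Anti-miR-21 and 49.24 ± 1.09 CPM in ACEi. The WT mice had 51.2, 53.6, 56.6, 57.2 and 57.4 CPM, within the Veh range of 52.11 to 62.69 CPM but for the lowest, and the 3 ACEi mice had 48.1, 49.4 and 50.2 CPM, below every WT and Veh mouse. Such separation of ACEi from WT was found for 46.1% of all genes and from Veh for 38.6%. Egfr did not pass the test between ACEi and WT (-0.16, edgeR adjusted p = 0.086). It was called lower there by DESeq2 (-0.19, adjusted p = 0.0427) and by edgeR with RLE scaling. The log2 fold change between Veh and WT was 0.04 (95% interval -0.09 to 0.17, edgeR adjusted p = 0.586) under TMM scaling, whereas Egfr was called higher in Veh with upper-quartile scaling (0.15, edgeR adjusted p = 0.0372), with library totals alone (0.62, edgeR adjusted p = 1.51e-07) and on FPKM values (0.25, limma adjusted p = 0.00236). The median over all genes tested moved from 0.07 under TMM scaling to 0.65 with library totals alone, so that Egfr moved together with that median. Between Anti-miR-21 and Veh the difference in Egfr was -0.06 (95% interval -0.18 to 0.07, edgeR adjusted p = 0.438), whereas Egfr was called lower with library totals alone (-0.40, edgeR adjusted p = 4.85e-05) and on log2(FPKM + 1) and log2(FPKM + 0.1) (-0.17 and -0.19, limma adjusted p = 0.0293 and 0.0397). Egfr was lower in ACEi than in Veh (-0.20, SE 0.07, edgeR adjusted p = 0.0352), a call lost without A1, A4, A9 or A16 of Veh or any 1 of the ACEi mice (highest edgeR adjusted p = 0.128), without the 4 mice high in adipocyte markers (adjusted p = 0.313), with no filter on counts (adjusted p = 0.0936), and within flow cell H5Y3 alone (adjusted p = 0.389).

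**Figure D4:**
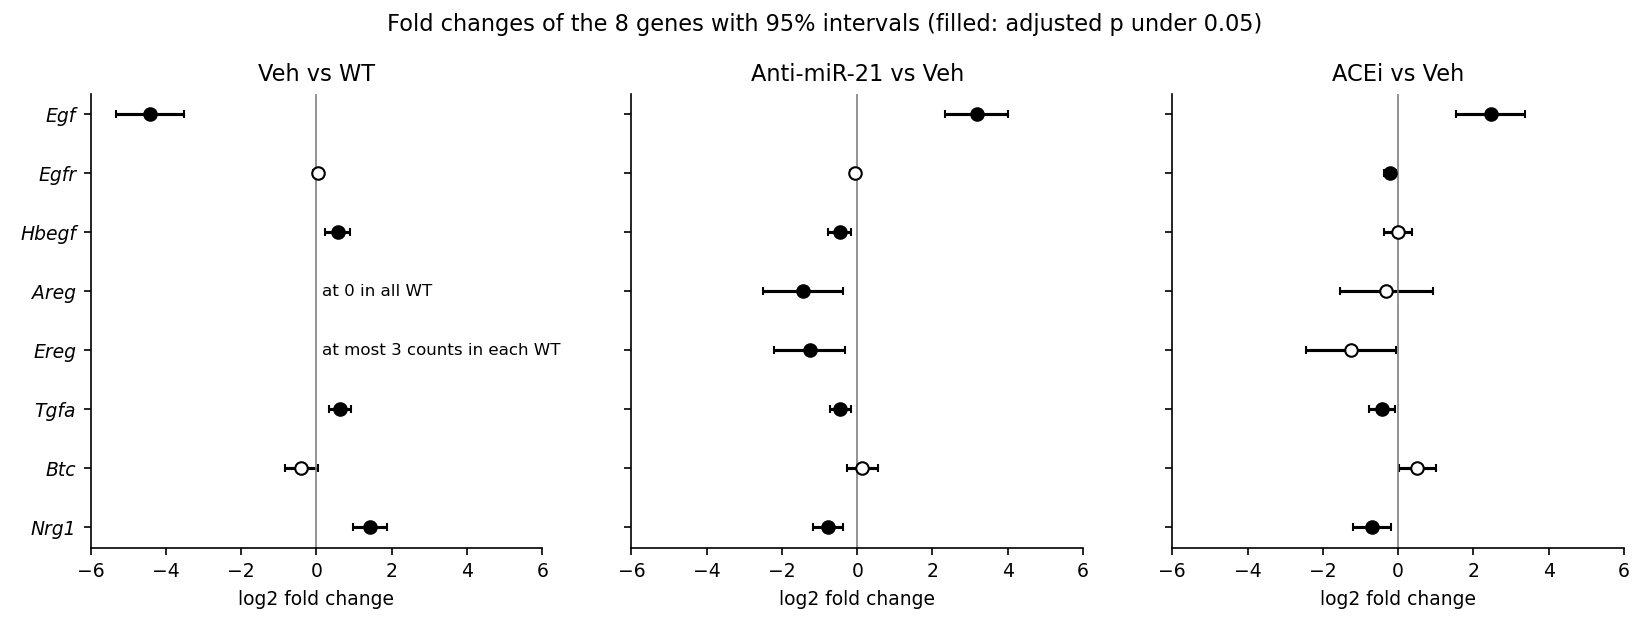
Log2 fold changes of the 8 genes with 95% intervals in Veh against WT (left), Anti-miR-21 against Veh (middle) and ACEi against Veh (right), filled where the adjusted p was under 0.05. The 3 panels share axes, and Areg and Ereg against WT are given in words because WT had 0 counts and at most 3 counts per library. Egf lies at -4.43, 3.17 and 2.46, farther from 0 than every other gene plotted.

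Levels can be compared between genes only per length, and for this the deposited FPKM values were used. In WT the order was Egf (289.2 ± 38.2 FPKM), Egfr (7.80 ± 0.56), Hbegf (6.47 ± 2.01), Nrg1 (2.02 ± 0.64), Btc (1.62 ± 0.54), Tgfa (0.931 ± 0.158), Ereg (0.00838 ± 0.01021) and Areg, which was listed at 0 in all 5 mice. Egfr and Hbegf, Nrg1 and Btc, Btc and Tgfa, and Ereg and Areg overlapped as neighbours in this order. In Veh, Egf (20.01 ± 15.4 FPKM) and Hbegf (14.4 ± 2.46) had the highest means and overlapped. Egfr (9.49 ± 0.68) and Nrg1 (8.61 ± 1.38) followed by their means and also overlapped each other. Egf ranged from 6.25 to 41.65 FPKM in Veh, so that it also overlapped Egfr (8.67 to 10.37) and Nrg1 (7.08 to 10.81). Tgfa (2.11 ± 0.27) and Btc (1.85 ± 0.42) overlapped as well, as did Areg (0.649 ± 0.427) and Ereg (0.190 ± 0.083). In both treated groups Egf was again separate at the top, with 142.4 ± 31.7 FPKM in Anti-miR-21 and 92.5 ± 17.2 FPKM in ACEi. The FPKM entries of Egf, Ereg and Nrg1 are marked by the authors as confounded with an overlapping gene.

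Egf made up 96.3% ± 0.80 of the summed FPKM of the 7 ligands in WT (94.9 to 96.8) and 37.5% ± 19.9 in Veh (18.9 to 63.2). It made up 89.8% ± 2.96 in Anti-miR-21 (85.8 to 93.9) and 81.6% ± 2.71 in ACEi (78.6 to 83.8). No Veh mouse reached any other group. The 6 other ligands together stood at 11.05 ± 1.58 FPKM in WT, 27.8 ± 3.63 in Veh, 15.5 ± 2.85 in Anti-miR-21 and 20.45 ± 1.36 in ACEi. FPKM values divide by library totals. The median log2 fold change over all genes between Veh and WT was 0.65 with library totals alone and 0.07 under TMM scaling. The summed FPKM of the 6 other ligands depends on this choice, while a share within 1 library does not depend on that scaling.

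**Figure D5:**
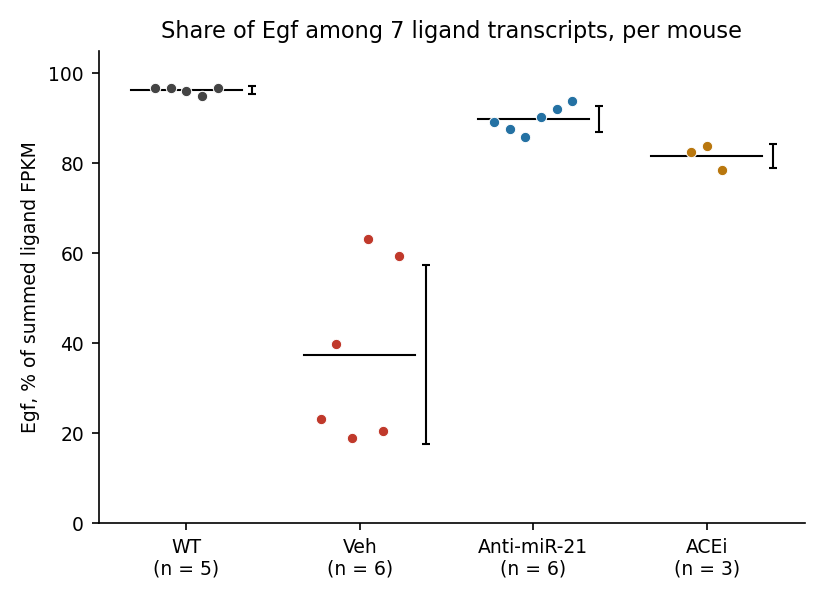
Share of Egf in the summed FPKM of 7 ligand transcripts, in percent, per mouse and group, with a line at the mean and a bar of 1 SD. WT mice sit between 94.9% and 96.8%, Veh mice spread from 18.9% to 63.2%, and treated mice sit between 78.6% and 93.9%.

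Of the 3 other receptors of the family, 1 fell, 1 rose and 1 did not pass the test between Veh and WT, beside 34.0% of all genes lower and 39.0% higher, so that the count does not set these receptors apart. Erbb2, the co-receptor without a ligand of its own, differed by -0.04 between Veh and WT (SE 0.10, edgeR adjusted p = 0.738), but was called higher in Veh with library totals alone (0.55) and on FPKM values (0.53). Erbb3, a neuregulin receptor with little kinase activity, fell from 85.2 ± 12.3 to 59.8 ± 3.91 CPM (log2 fold change -0.51, SE 0.08, edgeR adjusted p = 1.11e-05), and with library totals alone it was at 0.07. Erbb4, a receptor of neuregulins and betacellulin, rose from 11.2 ± 1.67 to 14.2 ± 0.81 CPM (0.35, SE 0.12, edgeR adjusted p = 0.013). These calls became 2 higher and none lower with library totals alone. In Anti-miR-21 against Veh, Erbb3 was higher (0.21, edgeR adjusted p = 0.024) and Erbb4 lower (-0.33, edgeR adjusted p = 0.0155), and in ACEi Erbb4 was lower (-0.45, edgeR adjusted p = 0.0151). Of the other 4 ligands of the family, Epgn and Nrg3 did not pass the count filter. Nrg4, an ERBB4 ligand, was lower in Veh (-0.55, SE 0.21, edgeR adjusted p = 0.0274; 0.04 with library totals alone), and Nrg2 was higher (2.17, SE 0.43, edgeR adjusted p = 0.00013).

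Of 8 shedding enzymes and their partners, which release the ligands, 7 rose and 1 (Adam9) fell in Veh, where 39.0% of all genes were called higher and 34.0% lower, with a median log2 fold change over the list of 0.54 beside 0.07 over all genes. Adam12, a metalloprotease known to release HB-EGF, rose from 3.34 ± 1.83 to 24.9 ± 4.98 CPM (log2 fold change 2.89, SE 0.29, edgeR adjusted p = 2.21e-08). Rhbdf2, a partner of ADAM17, rose by 1.73 (SE 0.11, edgeR adjusted p = 3.83e-11), its relative Rhbdf1 by 0.78 (SE 0.07), and Adam17, the main sheddase of EGFR ligands, by 0.60 (SE 0.08, edgeR adjusted p = 4.92e-07). In Anti-miR-21 against Veh, the 7 were all lower and Adam9 higher (all genes, 30.5% lower and 28.8% higher), and in ACEi 4 of the 8 were lower (all genes, 19.1%). With library totals alone 7 of the 8 were called higher and none lower in Veh, Adam9 being at 0.02. Without the 4 mice high in adipocyte markers, 6 rose and 1 fell in Veh, 1 was higher and 5 lower in Anti-miR-21, and 2 were lower in ACEi.

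Of 10 transcripts known to follow ERK activity, 8 rose between WT and Veh, beside 39.0% of all genes, and 1, Ccnd1, fell (-0.41, edgeR adjusted p = 0.00507; 0.17 with library totals alone). Egr1, an immediate early transcription factor, rose from 5.81 ± 3.22 to 113.5 ± 65.4 CPM (log2 fold change 4.28, SE 0.41, edgeR adjusted p = 1.04e-08). Myc rose by 2.40 (SE 0.24), Plaur, the urokinase receptor, by 2.37 (SE 0.24), and the transcription factor Etv4 by 1.89 (SE 0.26), each with an edgeR adjusted p of at most 1.36e-06. The median of the 10 log2 fold changes was 1.85 in Veh against WT, beside 0.07 over all genes. In Anti-miR-21 against Veh, 7 of the 10 were lower and none higher, beside 30.5% of all genes lower. In ACEi 3 of the 10 were lower, beside 19.1% of all genes. Without the 4 mice high in adipocyte markers the counts were 8 higher and none lower in Veh, 7 lower in Anti-miR-21 and 1 lower in ACEi.

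Inhibitors of the pathway moved in both directions. Of 15 feedback inhibitors, 8 rose and 2 fell in Veh (all genes, 39.0% and 34.0%), with a median log2 fold change of 0.35, and with library totals alone 13 rose and 1 fell. Against Veh, 2 were higher and 6 lower in Anti-miR-21 (all genes, 28.8% and 30.5%), and 1 was higher and 2 lower in ACEi (all genes, 21.0% and 19.1%), which became 1 and 12, and 1 and 11, with library totals alone. Dusp5, a phosphatase of nuclear ERK, rose from 2.11 ± 0.47 to 13.6 ± 1.69 CPM (log2 fold change 2.69, SE 0.16, edgeR adjusted p = 2.35e-11). The Sprouty-related genes Spred3 and Spry1 rose by 2.01 (SE 0.16) and 1.22 (SE 0.21). Errfi1, whose product MIG6 binds and inhibits the EGFR kinase, fell from 638.5 ± 132.9 to 213.5 ± 47.4 CPM (-1.58, SE 0.16, edgeR adjusted p = 2.2e-08) and was also lower with upper-quartile scaling (-1.47), library totals alone (-0.99) and FPKM values (-0.98). Of this list Errfi1 alone was called higher in both treated groups against Veh, by 1.01 (SE 0.15, edgeR adjusted p = 1.33e-05) in Anti-miR-21 and 1.03 (SE 0.18, edgeR adjusted p = 0.000186) in ACEi.

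Among 20 signalling adaptors and kinases, 9 rose and 10 fell in Veh against WT, beside 39.0% and 34.0% of all genes, and this split depended on the scaling, since 14 rose and none fell with library totals alone. Stat3, a transcription factor downstream of EGFR and of cytokine receptors, rose most (log2 fold change 1.51, SE 0.09, edgeR adjusted p = 1.23e-11), from 69.5 ± 8.15 to 197.7 ± 4.95 CPM. Nras and Akt1 rose by 0.92 and 0.90, and Braf fell by 0.71 on the log2 scale (-0.12 with library totals alone). In Anti-miR-21 against Veh, 9 rose and 9 fell (all genes, 28.8% and 30.5%), and in ACEi 7 rose and 5 fell (all genes, 21.0% and 19.1%). With library totals alone, none rose and 12 fell in either. Of 5 genes of magnesium handling in the distal convoluted tubule, the process EGF is known to act on, 2 rose and 3 fell in Veh. Fxyd2, a subunit of the sodium pump, fell from 1063.3 ± 128.8 to 369.3 ± 71.9 CPM (-1.53, SE 0.12, edgeR adjusted p = 7.17e-10). Trpm6, the apical magnesium channel known to be stimulated by EGF, was higher in Veh (0.44, SE 0.16, edgeR adjusted p = 0.0151), at 12.4 ± 2.08 against 9.16 ± 1.51 CPM, and lower in ACEi than in Veh (-0.79, SE 0.19, edgeR adjusted p = 0.00235). Cnnm2, Trpm7 and Slc41a3 changed by -0.59, -0.59 and 0.74 between Veh and WT, and with library totals alone Cnnm2 and Trpm7 were at -0.01 and -0.0015.

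Markers of other cell types also changed between Veh and WT. Their counts stand beside 39.0% of all genes called higher and 34.0% called lower in Veh. All 5 markers of injured tubule rose in Veh, led by Lcn2 (log2 fold change 6.95, SE 0.41), with a summed level of 23.19 to 35.44 CPM in WT, 835.9 to 1352.4 in Veh, 267.6 to 555.4 in Anti-miR-21 and 536.0 to 624.2 in ACEi. Lcn2 was the most abundant of them in Veh, Vcam1 in ACEi, and Havcr1 in WT and Anti-miR-21. All 6 macrophage markers rose, with sums of 139.6 to 153.5, 816.8 to 998.2, 341.1 to 517.6 and 449.5 to 532.2 CPM in the same order. C1qb was the most abundant of them in Veh and Csf1r in the other groups. All 5 fibroblast markers rose (111.3 to 258.1, 1503.6 to 1812.3, 428.6 to 821.6 and 804.8 to 914.6 CPM, with Col1a1 the most abundant), as did all 5 T cell markers (2.09 to 3.08, 12.7 to 36.4, 8.57 to 16.7 and 12.8 to 21.1 CPM, with Cd4 the most abundant in the Col4a3-/- groups and Cd8a in WT). Among Schwann cell and nerve markers, which matter for Nrg1 because nerves are a known source of it, Ngfr, Sox10 and S100b rose. Ngfr was the most abundant of these 3, at 2.65 ± 0.92 CPM in WT and 8.77 ± 3.19 CPM in Veh (SD, log2 fold change 1.72, SE 0.25, edgeR adjusted p = 2.51e-06), and stood at 8.08 ± 0.96 CPM in Anti-miR-21 and 11.5 ± 1.84 CPM in ACEi. Sox10 and S100b were called lower in Anti-miR-21 than in Veh (log2 fold change -1.26 and -0.94, edgeR adjusted p = 0.00194 and 0.0421), but Ngfr was not. In ACEi S100b was called lower than in Veh (-1.58, edgeR adjusted p = 0.021), but Ngfr and Sox10 were not. Nrg1 was called lower in both treated groups, so these 3 markers did not follow it as a set. All 5 proximal tubule markers fell (9634.3 to 12761.9 CPM in WT, 1190.3 to 3161.9 in Veh, 5355.0 to 9010.5 in Anti-miR-21 and 5587.3 to 7431.3 in ACEi), led by the phosphate transporter Slc34a1. Against Veh, 4 of 5 injured tubule, 4 of 5 fibroblast, 4 of 5 T cell and all 6 macrophage markers were called lower in Anti-miR-21 (all genes, 30.5%). In ACEi these were 1, 2, none and 6 in the same order (all genes, 19.1%). All 5 proximal tubule markers were called higher in both (all genes, 28.8% and 21.0%). Of 5 podocyte markers, 3 were higher and 1 lower in Anti-miR-21, and 2 higher and none lower in ACEi. None of the markers described here was at 0 throughout a group. Their part in the changes of Hbegf, Tgfa, Nrg1, Areg and Ereg was not tested. Of the remaining lists, 4 of 5 podocyte markers rose and 4 of 5 collecting duct markers fell, 2 of 5 endothelial markers rose and 1 (Kdr) fell, close to the shares of all genes, 4 of 5 adipocyte markers rose, and of 3 mast cell markers that passed the filter 2 rose. Their sums in Veh were 357.7 to 422.8, 387.9 to 781.8, 226.5 to 284.2, 0.59 to 410.1 and 0.44 to 2.60 CPM, and the mast cell marker Fcer1a was at 0 in the other groups. The adipocyte sum was 350.9 to 410.1 CPM in Veh mice A1, A4 and A9. In Veh mice A16, A19 and A20 it was 23.39, 1.92 and 0.59 CPM, beside 1.68 to 18.31 CPM in WT.

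The genes most like each member over the 20 mice were found by the mean absolute difference in log2 CPM relative to the WT mean, among 15327 protein-coding genes, as a description. Most like Egf were Slc22a30, an organic anion transporter, Akr1c14, an aldo-keto reductase, and Azgp1, at 0.32, 0.33 and 0.34. Their means relative to WT were -4.61, -5.20 and -4.66 in Veh, -1.26, -1.14 and -0.92 in Anti-miR-21, and -1.32, -1.43 and -1.75 in ACEi. Most like Nrg1 were Klhl25, Gins1 and Dtx3l (0.24 to 0.25), most like Tgfa were Ktn1, Ctps and Ptpn1 (0.11 to 0.13), and most like Hbegf were Vasn, Ubtd1 and Bcl10 (0.17 to 0.18). Areg was nearest to 2410004P03Rik, Dok5 and Casp12 and Ereg to Adgrg6, Chrnb1 and Tgfb3, at larger distances of 0.38 to 0.45. Egfr was nearest to Ccdc71, Rapgef1 and Dhx37 (0.07 to 0.08), and Btc to Cep290, Arhgap6 and Mtm1 (0.21 to 0.23).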

How the data were processed

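Kidney RNA of 20 mice was sequenced. The authors' pipeline used OmicSoft tools on GRCm38. An estimated count per Ensembl gene was made by the authors and deposited without normalization between libraries (27.9% of positive values were not whole). The authors also deposited FPKM values, normalized for length and library total, for 33368 gene entries. That table holds 3 columns of no mouse in these groups, which were not used. Symbols were matched for 98.8% of genes.

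Estimated counts were rounded, filtered with filterByExpr (minimum count 10, minimum total 15), scaled by TMM and tested with edgeR 4.0.16 in R 4.3.3 (quasi-likelihood test, 1 coefficient per group over 20 mice, Benjamini-Hochberg, threshold 0.05). The alternatives were DESeq2 1.42.0, limma 3.58.1 on log2(FPKM + 1) and log2(FPKM + 0.1), other scalings and filters, the flow cell as a term or alone, only the groups compared, and leaving out each mouse. The set without the 4 mice whose adipocyte markers exceed 100 CPM was added after seeing the data. Levels, ratios and counting intervals were computed in Python 3.11.15. The steps were tested on simulated data. In each comparison 200 genes were changed, up and down in equal numbers, which is far fewer than were called between Veh and WT. The simulation therefore did not test the scaling under a change as wide as in these data. Of 100 genes changed by 1 on the log2 scale, 82% were recovered between Veh and WT (among 17248 genes), 70% between Anti-miR-21 and Veh (17268), 75% between ACEi and Veh (17245) and 63% between Anti-miR-21 and ACEi (17274).

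Named were the members, every receptor, up to 4 genes per list with the largest called change between Veh and WT (average log2 CPM 1 or more), and the 3 genes most like each member. Adam9, Ccnd1, Nrg2, Trpm6, Cldn16, Aqp2, Csf1r, Havcr1, Sox10, S100b and Fcer1a were named after their values were seen. The members and lists were chosen with earlier results of these data known. Some members of the Schwann cell and nerve marker list are not reported here. Sequences are from RefSeq and, for 3′ UTRs, GENCODE. The promoters of Hbegf, Ereg and Nrg1 were not used here.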

Additional observations from a re-analysis of the deposited data

Results flagged for a closer look

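Within the groups of 5 or 6 mice, 23 sets of values (a member in a group) were examined for a single mouse far from the others by Dixon's criterion at the 95% level, which chance meets in about 1 of 20 sets. In Veh, mouse A19 had 1.374 CPM of Areg, and the other 5 mice had 0.276 to 0.616 CPM. In Anti-miR-21, mouse A10 had 0.6905 CPM of Ereg, and the other 5 mice had 0.111 to 0.201 CPM. These are 50 and 20 counts. Neither mouse stood apart from its group in another member by the same criterion.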

How the results depend on the processing

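No paired analysis was possible because each mouse has a name of its own and no number is shared between groups. Over the 6 comparisons, the 48 log2 fold changes of the members were computed under 1039 alternatives in all. Of these, 913 kept direction and side of the threshold, 54 lost the call, 21 gained one and 51 turned in sign. Egf kept both in Veh against WT (-5.44 to -3.39), Anti-miR-21 against Veh (2.63 to 4.21) and ACEi against Veh (1.65 to 2.89) under every alternative run. Flow cell H5V5 alone could not be run for comparisons with ACEi, nor H5Y3 alone for those with Anti-miR-21, since each held 1 such library.

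The sign turned mostly where the value was near 0, and the cause was not tested. Btc was at 0.1762 in Veh against WT with library totals alone, 0.1308 and 0.2095 on log2(FPKM + 1) and log2(FPKM + 0.1), and 0.0873 within H5Y3. In Anti-miR-21 against Veh, it was at -0.1927, -0.1307 and -0.2036 under the first 3 of these, and in Anti-miR-21 against WT at 0.0001 and 0.0059 on the FPKM scales. Hbegf in ACEi against Veh was at -0.0077 with DESeq2, -0.0078 with RLE scaling and with at least 10 counts in every mouse, -0.2752 with library totals alone, -0.0765 with upper-quartile scaling, -0.2493 and -0.2659 on the FPKM scales, -0.0671 with flow cell as a term and -0.0071 with only the groups compared. Leaving out 1 mouse gave -0.0627 to 0.0969. Egfr in Anti-miR-21 against WT was at 0.2267 with library totals alone, 0.0140 with upper-quartile scaling, 0.0102 with no filter, 0.0255 with at least 10 counts in every mouse, 0.0854 and 0.0943 on the FPKM scales, and -0.0438 to 0.0225 without 1 mouse. In ACEi against WT it was at 0.1466 with library totals alone. Ereg in Anti-miR-21 against ACEi was at 0.0520 with flow cell as a term, and Tgfa in ACEi against WT at -0.0347 within H5Y3. Without 1 mouse, Ereg in Anti-miR-21 against ACEi ranged from -0.5849 to 0.3465, Tgfa in that comparison from -0.1748 to 0.0788, Areg in ACEi against Veh from -0.9219 to 0.1122 (the last without A19), Hbegf in Anti-miR-21 against WT from -0.0216 to 0.2721 and Btc in ACEi against WT from -0.0339 to 0.2782.

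Without the 4 mice high in adipocyte markers, Egfr was at -0.0181 in Veh against WT, 0.0431 in Anti-miR-21 against Veh and 0.0250 in Anti-miR-21 against WT, and Ereg was at 0.0640 in Anti-miR-21 against ACEi. In that setting 3 members were called in Anti-miR-21 against Veh and 1 in ACEi against Veh, where 1569 genes were called lower and 66.0% of the genes called were higher. Within H5Y3, 3 members were called in Veh against WT, 1 in ACEi against Veh and 2 in ACEi against WT. Genes called there were 1129 higher and 410 lower (73.4% higher) in ACEi against Veh and 1973 lower in ACEi against WT, and within H5V5 2262 were lower in Anti-miR-21 against WT. With no filter, 2 members were called in ACEi against Veh, and without 1 mouse 1 to 4 were (4 without A20, at most 2 without any other). In Anti-miR-21 against WT, 2 members were called with at least 10 counts in every mouse, on log2(FPKM + 1) and with only the groups compared. In ACEi against WT, 3 were called with at least 10 counts in every mouse, 2 with only the groups compared and 3 to 5 without 1 mouse (3 without A23). In both comparisons, Areg and Ereg were not tested with at least 10 counts in every mouse or with only the groups compared. On log2(FPKM + 1), their calls in Anti-miR-21 against WT were lost. Between Anti-miR-21 and ACEi, 64 genes were called higher and 39 lower, or 62.1% higher. With DESeq2, 225 were higher, or 51.5% of those called, and on log2(FPKM + 1) 46.2% were higher. The counts were 41 and 25 with no filter, 42 higher with library totals alone, 73 lower with at least 10 counts in every mouse, 33 higher on log2(FPKM + 0.1) and 20 lower without the mice high in adipocyte markers. Without 1 mouse they were 14 to 94 higher and 7 to 120 lower (lowest without A23, highest without A8), and 43.9% to 71.4% were higher. Genes called lower in ACEi against Veh without 1 mouse were 1991 to 3140 (1991 without A13). Areg and Ereg, with at most 50 counts in a library, are limited by depth.

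The split of all genes by direction depended on the scaling, since library totals and FPKM values lack the TMM factors. In the order of library totals alone, log2(FPKM + 1) and log2(FPKM + 0.1), genes called higher in Veh against WT were 11623, 11743 and 11922, or 81.2%, 81.8% and 82.1% of those called, beside 53.4% with TMM. Those in Anti-miR-21 against Veh were 2459, 2380 and 2403, or 19.96%, 19.1% and 19.4%, beside 48.6%. Those in ACEi against Veh were 1907, 1846 and 1838, or 20.5%, 19.1% and 20.04%, beside 52.4%, and 41.5% were higher there with upper-quartile scaling. Those in Anti-miR-21 against WT were 7719, 6922 and 7280, or 88.6%, 88.7% and 90.0%, beside 54.6%. Those in ACEi against WT were 8006, 7404 and 7706, or 85.6%, 85.6% and 87.0%, beside 52.7%.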
